A study of Mus musculus with 6 samples.

Results

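The antigen presentation genes described here were chosen by name: H2-K1, H2-D1, H2-T23, B2m, Tap1, Tap2, Tapbp, H2-Aa, H2-Ab1 and Cd74. They are 10 of the 21730 genes, and their transcripts with a read are 39 of the 59371 annotated transcripts, that the libraries detected. The samples are interscapular brown adipose tissue, a fat depot between the shoulder blades whose adipocytes burn fuel for heat, from male wild type C57BL/6N mice aged 20 weeks. The cold group, mice 4, 11 and 15, was kept at 4 °C for 24 h with 1 mouse in each cage. The ctrl group, mice 2, 9 and 14, is labelled ctrl, and the husbandry text gives 22 to 24 °C for the colony. The labels' treatment text describes the cold housing for all 6 samples alike, so the groups were taken from the titles and the treatment field, which give ctrl or cold for each mouse. If the ctrl mice shared cages, single housing cannot be told apart from the cold. Poly(A) RNA from each mouse went into 1 Oxford Nanopore direct cDNA library, a PCR-free long-read protocol, which was run on 2 flow cells. The n of every test is the mouse, and the reads of both flow cells were summed. The extraction text mentions a different fat depot (eWAT), while the tissue fields of all 6 samples give interscapular brown fat.

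MHC class I molecules display peptides made inside the cell to CD8 T cells and natural killer cells. Each has a heavy chain, such as those encoded by H2-K1 and H2-D1, bound to beta-2 microglobulin, the product of B2m. Peptides cut by the proteasome are pumped into the endoplasmic reticulum by the TAP transporter, a pair of the Tap1 and Tap2 proteins, and tapasin, encoded by Tapbp, holds empty class I molecules at that transporter. MHC class II molecules, such as the alpha chain of H2-Aa with the beta chain of H2-Ab1, display peptides from the endocytic route to CD4 T cells, and the invariant chain, encoded by Cd74, guides them there. Class I genes are active in most nucleated cells and class II genes mainly in dendritic cells, macrophages and B cells, and interferon gamma raises both.

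The libraries held 2082203, 1982292 and 1657985 reads in cold mice 4, 11 and 15, and 1829442, 1989224 and 2238056 reads in ctrl mice 2, 9 and 14. At these depths 3 reads equal 1.34 to 1.81 CPM, the unit used below for reads scaled to a common library size. The markers of brown adipocytes were abundant, as the tissue label says, with Ucp1, the uncoupling protein of brown fat, at 13810 ± 125 CPM in cold mice and 10666 ± 840 CPM in ctrl mice (SD, n = 3 each). Skeletal muscle markers were also present, and their summed level varied from mouse to mouse, at 186, 952 and 2393 CPM in cold mice and 65.4, 265 and 442 CPM in ctrl mice.

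Promoter sequences are shown for 6 of the genes. In the search below, H2-K1 and H2-D1 share a layout of motif matches that other members' windows lack or hold only in part. RefSeq windows on GRCm38.p6, running from 250 bases before to 50 after a gene's start, were found for 7 of the 10 genes. They were searched on both strands for the core of the interferon-stimulated response element (GAAANNGAA), the gamma-activated site (TTCNNNGAA), an NF-kappaB site (GGGNNTTCC), the X1 box of MHC promoters (CCNAGNNAC), the core of the X2 box (TGACG) and the Y box (ATTGG). Capitals mark each match, on either strand, and positions below count from the gene's start as 0. The 6 windows, in the order of the roles given below, lie at chr17:34000284-34000583 (H2-K1, minus strand), chr17:35262844-35263143 (H2-D1, plus strand), chr17:36032652-36032951 (H2-T23, minus strand), chr2:122147437-122147736 (B2m, plus strand), chr17:33919228-33919527 (Tapbp, plus strand) and chr17:34287774-34288073 (H2-Aa, minus strand).
H2-K1: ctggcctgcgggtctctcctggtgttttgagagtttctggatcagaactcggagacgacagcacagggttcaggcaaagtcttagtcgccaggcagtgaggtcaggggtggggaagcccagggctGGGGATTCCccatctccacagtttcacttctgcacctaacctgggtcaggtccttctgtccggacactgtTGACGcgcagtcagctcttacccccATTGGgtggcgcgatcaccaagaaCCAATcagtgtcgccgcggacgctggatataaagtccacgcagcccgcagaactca
H2-D1: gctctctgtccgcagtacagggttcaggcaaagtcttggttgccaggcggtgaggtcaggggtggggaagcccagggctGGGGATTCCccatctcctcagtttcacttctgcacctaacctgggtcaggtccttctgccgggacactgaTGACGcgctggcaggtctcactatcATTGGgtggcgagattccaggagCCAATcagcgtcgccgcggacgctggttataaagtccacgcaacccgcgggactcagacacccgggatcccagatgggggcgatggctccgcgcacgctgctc
H2-T23: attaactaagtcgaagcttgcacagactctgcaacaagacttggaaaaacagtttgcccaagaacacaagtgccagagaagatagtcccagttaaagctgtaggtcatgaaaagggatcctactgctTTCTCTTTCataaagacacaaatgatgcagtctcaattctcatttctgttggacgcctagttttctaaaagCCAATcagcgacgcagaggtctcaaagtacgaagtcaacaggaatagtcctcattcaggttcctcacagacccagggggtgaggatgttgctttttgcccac
B2m: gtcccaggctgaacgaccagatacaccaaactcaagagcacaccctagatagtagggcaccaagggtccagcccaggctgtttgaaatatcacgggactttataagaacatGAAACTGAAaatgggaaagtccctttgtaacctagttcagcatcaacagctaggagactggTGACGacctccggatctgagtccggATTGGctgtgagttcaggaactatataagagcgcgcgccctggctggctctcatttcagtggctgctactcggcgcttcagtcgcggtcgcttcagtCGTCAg
Tapbp: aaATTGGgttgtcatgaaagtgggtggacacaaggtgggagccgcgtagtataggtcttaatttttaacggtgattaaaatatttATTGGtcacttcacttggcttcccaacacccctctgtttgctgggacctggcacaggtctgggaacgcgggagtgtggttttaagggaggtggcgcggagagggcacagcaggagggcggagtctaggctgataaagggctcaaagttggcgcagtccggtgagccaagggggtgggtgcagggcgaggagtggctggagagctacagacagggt
H2-Aa: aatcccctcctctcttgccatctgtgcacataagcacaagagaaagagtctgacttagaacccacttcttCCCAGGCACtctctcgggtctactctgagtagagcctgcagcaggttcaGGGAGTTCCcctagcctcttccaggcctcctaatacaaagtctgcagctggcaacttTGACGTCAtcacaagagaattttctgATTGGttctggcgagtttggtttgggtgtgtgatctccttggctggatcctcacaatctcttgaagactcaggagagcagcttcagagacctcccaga

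In the H2-K1 window an NF-kappaB match, an X2 match and 2 Y box matches, the second on the minus strand, stood at -125, -55, -30 and -6, and in the H2-D1 window the same 4 stood in the same order at -171, -101, -76 and -53. B2m held a response element core at -139, X2 matches at -78 and 44 and a Y box match at -53. H2-T23 held a response element core on the minus strand at -123 and a Y box match at -52. Tapbp held only Y box matches, at -248 and -165. The start from which positions count can differ from that of a counted transcript. The transcript Tapbp-201, with 59.7% of Tapbp reads, starts at 33919332, inside the Tapbp window. H2-D1-202, with 99.9% of H2-D1 reads, starts at 35262730, upstream of the whole H2-D1 window. In the class II gene H2-Aa, an X1 match at -180, an NF-kappaB match at -131, X2 matches on opposite strands at -74 and -71, which overlap, and a Y box match at -48 were found. Such short motifs are common: of 32851 promoter windows in the table, 8.56% hold the response element core, 8.3% the gamma-activated site, 5.82% the NF-kappaB motif, 17.3% the X1 motif, 20.8% the X2 motif and 37.4% the Y box. A match describes the letters of these windows and is not evidence of a bound factor. The search took fixed letters, so a window without a match may still hold a variant of a motif. The H2-K1 and H2-D1 windows both hold agtttcacttct, with repeated GAA on the other strand, which the response element core as searched does not match.

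Some genes of both arms of antigen presentation had less RNA in brown fat after a day in the cold. Of the 9 members with enough reads to test, 7 were lower in cold mice at an adjusted p under 0.05, the threshold for a call, and none was higher; of all 8684 tested genes 19.5% were called in either direction and 9.77% lower. The 7 were H2-T23, Tapbp, Tap2, B2m, Cd74, H2-Ab1 and H2-K1, with falls between 1.24-fold (H2-K1) and 2.12-fold (H2-T23). H2-D1 and H2-Aa were not called. For class II the calls were those of Cd74 and H2-Ab1, and that of H2-Ab1 was lost in 8 of 14 alternative settings. The H2-K1 call of class I was lost in 8 of 14 as well. H2-Eb1, a class II gene outside the members, was not called either (log2 fold change 0.16). All 9 log2 fold changes lay below 0, as did 49.9% of all tested genes, and the members' median was -0.55 against 0.00090 over all genes. Every cold mouse lay below every ctrl mouse in 8 of the 9, which holds for 17.8% of all tested genes. The members were named with results of these data known, so these counts describe them and are not an independent test. In bulk tissue, fewer cells of a type and less RNA per cell cannot be told apart. The member count fell to 4 without cold mouse 11 or without cold mouse 15, was 4 with DESeq2, and was 5 on flow cell 1 alone and 1 (Tapbp) on flow cell 2 alone.

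**Figure D1:**
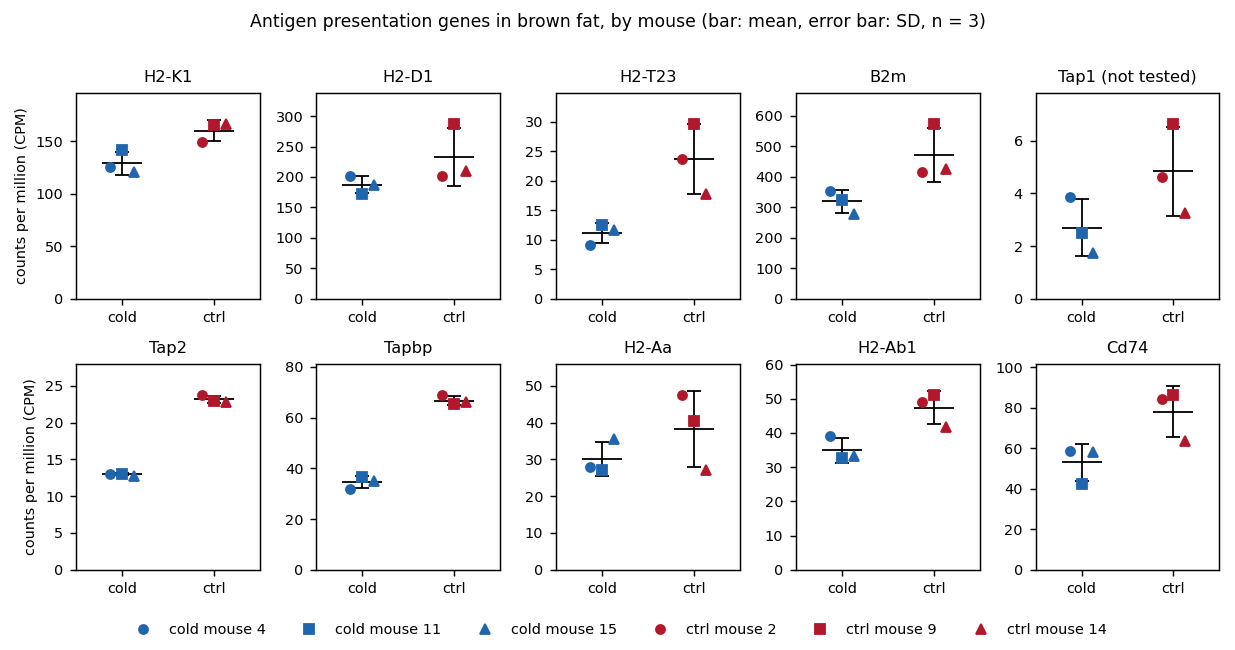
Level of each antigen presentation gene in each mouse, in CPM from 0 on the vertical axis, with cold mice on the left and ctrl mice on the right of each panel; the bar is the mean and the error bar the SD (n = 3). Groups are far apart for Tapbp and Tap2, touch for H2-D1 and overlap for H2-Aa; Tap1 had too few reads for a test.

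Of the class I heavy chain genes, H2-T23 and H2-K1 fell and H2-D1 was not called. H2-T23 (chromosome 17, 36029773 to 36032855, minus strand) encodes Qa-1, a nonclassical heavy chain that presents leader peptides of other class I molecules to receptors of natural killer cells. It stood at 9.18, 12.5 and 11.6 CPM in cold mice and 23.7, 29.6 and 17.7 CPM in ctrl mice. The groups did not overlap, and the fall was the largest of the 9 in fold: a log2 fold change of -1.08 ± 0.23 (SE; 95% interval -1.57 to -0.60; adjusted p = 0.00192). It rests on 64 reads in cold mice and 137 in ctrl mice, and on flow cell 2 alone its adjusted p was 0.161.

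H2-K1 and H2-D1 encode the classical heavy chains that carry peptides to CD8 T cells. H2-K1 (chromosome 17, 33996017 to 34000347, minus strand) had 125, 141 and 121 CPM in cold mice and 149, 165 and 166 CPM in ctrl mice. The cold mice were all lower, and the 1.24-fold fall was called (log2 fold change -0.31 ± 0.095, adjusted p = 0.0242). That call was lost without cold mouse 4 (adjusted p = 0.0953), cold mouse 15 (0.0905), ctrl mouse 9 (0.0636) or ctrl mouse 14 (0.0909), and also with DESeq2 (0.139), on flow cell 1 alone (0.0558), on flow cell 2 alone (0.0672) and with protein-coding transcripts alone (0.153), which makes 8 of 14 alternatives.

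H2-D1 (chromosome 17, 35262730 to 35267499, plus strand) had 200.98, 172.83 and 187.49 CPM in cold mice and 201.35, 286.80 and 209.85 CPM in ctrl mice. The highest cold mouse lay just under the lowest ctrl mouse, and ctrl mouse 9 stood well above the rest. Its log2 fold change, -0.32 ± 0.12 (95% interval -0.57 to -0.06), was close in size to that of H2-K1 but not called (adjusted p = 0.0842). Without ctrl mouse 2 (adjusted p = 0.0355) and without the filter on low counts (0.0170) it was called.

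B2m (chromosome 2, 122147686 to 122153083, plus strand), whose product pairs with every one of these heavy chains, had 355, 324 and 279 CPM in cold mice and 415, 573 and 426 CPM in ctrl mice. Ctrl mouse 9 was again the highest, and the groups did not overlap. B2m averaged 319 ± 38.0 CPM in cold mice and 472 ± 88.1 CPM in ctrl mice (SD, n = 3 each), a 1.47-fold fall (log2 fold change -0.56 ± 0.14, 95% interval -0.87 to -0.25, adjusted p = 0.0194). The call was lost without cold mouse 11 (adjusted p = 0.103) or cold mouse 15 (0.0664), and on flow cell 2 alone (0.0781).

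The peptide loading genes Tapbp and Tap2 fell, and the groups did not overlap for either gene. Tapbp (chromosome 17, 33915899 to 33929292, plus strand), which encodes tapasin, had 31.9, 36.6 and 34.9 CPM in cold mice and 68.9, 65.3 and 66.1 CPM in ctrl mice. The mice within each group lay within a few CPM of each other, and the groups were far apart. Cold mice 4, 11 and 15 had 66, 73 and 60 reads, and ctrl mice 2, 9 and 14 had 119, 128 and 142. At such counts, counting noise alone exceeds the SDs of 2.38 CPM (cold) and 1.86 CPM (ctrl), so the small spread is not a measure of precision. The fall of Tapbp was 1.94-fold (log2 fold change -0.95 ± 0.13, 95% interval -1.21 to -0.69, adjusted p = 9.46e-06). It was called in all 14 alternative settings, with adjusted p-values up to 0.00277.

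Tap2 (chromosome 17, 34203527 to 34216321, plus strand), one side of the peptide pump, had 13.04, 13.02 and 12.8 CPM in cold mice and 23.7, 22.96 and 22.8 CPM in ctrl mice. The spread within each group was under 1 CPM, smaller than the gap between the groups. Cold mice 4, 11 and 15 had 27, 26 and 22 reads, and ctrl mice 2, 9 and 14 had 41, 45 and 49. At such counts, counting noise alone exceeds 1 CPM, so the small spread is not a measure of precision. Tap2 was 1.78-fold lower in the cold (log2 fold change -0.83 ± 0.19, adjusted p = 0.0038), from 75 reads in cold mice and 135 in ctrl mice. The call held without any single mouse and was lost with DESeq2 (adjusted p = 0.0515), with protein-coding transcripts alone (0.0609) and on flow cell 2 alone (0.258).

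Tap1 (chromosome 17, 34187553 to 34197225, plus strand), its partner, had only 8, 5 and 3 reads in cold mice 4, 11 and 15 and 8, 13 and 7 reads in ctrl mice 2, 9 and 14, and did not pass the filter on low counts. The groups overlap, and no fold change is given at this depth. Tap1 shares 212 nt of exon on the opposite strand with its neighbour Psmb9, which had 97 reads in all. Whether the authors' counting used strand is not given in the sources used here, so reads in that stretch cannot be assigned to one of the pair.

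Of the 3 class II members, Cd74 and H2-Ab1 fell and H2-Aa was not called. Cd74, the invariant chain and the only member besides B2m that lies outside the MHC region of chromosome 17, had 58.5, 42.6 and 58.2 CPM in cold mice and 84.5, 86.2 and 63.7 CPM in ctrl mice. The groups did not overlap, with ctrl mouse 14 nearest to the cold mice. Its 1.47-fold fall (log2 fold change -0.55 ± 0.14, 95% interval -0.85 to -0.26) had an adjusted p of 0.00859. Without cold mouse 11 the adjusted p was 0.0623, without ctrl mouse 2 it was 0.0520 and on flow cell 2 alone it was 0.0664.

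H2-Ab1 (chromosome 17, 34257689 to 34269419, plus strand), the beta chain, had 39.1, 32.6 and 33.2 CPM in cold mice and 49.2, 51.0 and 41.9 CPM in ctrl mice. All cold mice were lower, and the fall was called (log2 fold change -0.43 ± 0.14, adjusted p = 0.0369). Without cold mouse 11, cold mouse 15, ctrl mouse 2 or ctrl mouse 9 the adjusted p was 0.133, 0.103, 0.107 and 0.128. It was 0.219 with DESeq2, 0.0564 without the filter on low counts, 0.117 on flow cell 1 alone and 0.214 on flow cell 2 alone, so the call was lost in 8 of 14 alternatives. H2-Aa (chromosome 17, 34282744 to 34287823, minus strand), the alpha chain, had 28.0, 27.1 and 35.5 CPM in cold mice and 47.4, 40.3 and 27.0 CPM in ctrl mice. Ctrl mouse 14 lay below all cold mice, so the groups overlap. H2-Aa was not called (log2 fold change -0.33 ± 0.19, 95% interval -0.73 to 0.06, adjusted p = 0.248), and without ctrl mouse 14 its adjusted p was 0.0386.

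**Figure D2:**
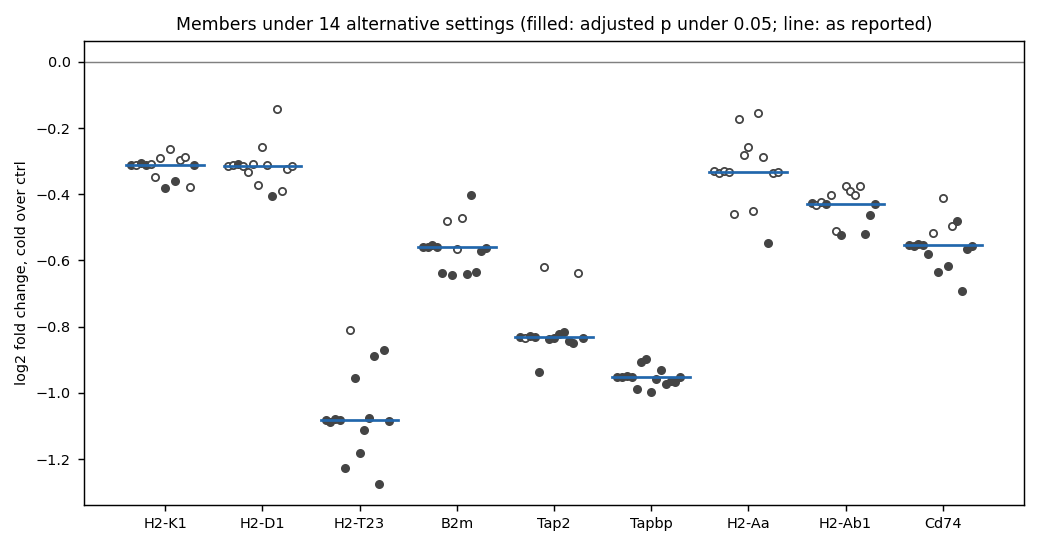
Log2 fold change (cold over ctrl) of the 9 tested members under each of 14 alternative settings, as points, beside the reported value, as a line; filled points had an adjusted p under 0.05. All points lie below 0, and Tapbp is the one member with every point filled.

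Class I genes are close copies, so a read can be counted on the wrong one. The main H2-K1 and H2-D1 transcripts were identical at 91.3% of 1050 aligned positions and at 98% in their most alike stretch of 200 nt, and other class I pairs reached 98.5% in such a stretch. The reads of 12 class I heavy chain genes were therefore also summed, which does not depend on how they were split: H2-K1, H2-D1, H2-T23, H2-Q4, H2-Q6, H2-Q7, H2-Q10, H2-T10, H2-T22, H2-T24, H2-M3 and H2-Bl. The sum was 558.29, 558.33 and 487 CPM in cold mice and 659, 854 and 694 CPM in ctrl mice. No cold mouse reached the lowest ctrl mouse, and the sum was 1.38-fold lower in the cold (log2 fold change -0.46 ± 0.092, 95% interval -0.65 to -0.27, adjusted p = 0.00134). It was called in all 13 alternatives that kept the 12 genes, between -0.53 and -0.35. Much of the difference was counted on H2-Q10, described further on, which averaged 134 CPM in cold mice and 248 CPM in ctrl mice. The whole sum averaged 534 CPM in cold mice and 736 CPM in ctrl mice. H2-D1 and H2-Q10 were identical at 98.5% in their most alike stretch of 200 nt. The level of H2-Q10, and a sum without it, do depend on how reads were split. Without H2-Q10, an alternative added after seeing the data and fitted with all 6 mice only, the sum of the other 11 genes was 415, 395 and 393 CPM in cold mice and 445, 566 and 452 CPM in ctrl mice. Its groups did not overlap, and the fall was smaller but called (log2 fold change -0.28 ± 0.087, adjusted p = 0.0263).

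The summed reads of the class II genes H2-Aa, H2-Ab1, H2-Eb1 and Cd74 came to 170, 141 and 157 CPM in cold mice and 216, 213 and 166 CPM in ctrl mice. Ctrl mouse 14 lay within the range of the cold mice. The sum was called lower (log2 fold change -0.34 ± 0.11, adjusted p = 0.028). It was not called without cold mouse 11 (adjusted p = 0.144), cold mouse 15 (0.0627), ctrl mouse 2 (0.145) or ctrl mouse 9 (0.108), nor with DESeq2 (0.110) or on flow cell 2 alone (0.053).

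The members' reads were also counted on single transcripts. How a read that fits several transcripts of a gene was assigned is not given in the sources used here. Levels of single transcripts depend on that assignment. Of 16 member transcripts with enough reads, 7 were called lower in the cold and none higher, where 7.95% of all 11699 tested transcripts were called lower. All 16 had log2 fold changes below 0, although that of H2-K1-211 was -0.00068 and changed sign between settings. Cold mice lay below ctrl mice in 11 of the 16, against 16.1% of all tested transcripts.

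Tapbp reads were counted mainly on a pair of protein-coding transcripts, Tapbp-201 with 59.7% and Tapbp-206 with 38.8%. The second starts 305 nt downstream of the first, so a read of Tapbp-201 that lacks its first part could be counted on Tapbp-206. Tapbp-201 had 14.8, 23.6 and 17.4 CPM in cold mice and 44.2, 40.6 and 45.5 CPM in ctrl mice, so that no cold mouse came near a ctrl mouse (log2 fold change -1.22 ± 0.18, adjusted p = 1.2e-05). Tapbp-206 had 17.3, 12.8 and 18.6 CPM in cold mice and 25.1, 26.4 and 21.6 CPM in ctrl mice, also without overlap (log2 fold change -0.58 ± 0.20, adjusted p = 0.0477). Its call was lost without any one of cold mice 4 and 11 and ctrl mice 2, 9 and 14, at adjusted p-values of 0.0815, 0.220, 0.111, 0.154 and 0.051. It was also lost with DESeq2 (0.268), without the filter on low counts (0.147) and on flow cell 1 (0.189) or flow cell 2 (0.141) alone. The difference between the transcripts' changes was tested as transcript usage and was not called (edgeR's diffSpliceDGE, adjusted p = 0.99998).

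Cd74 is known for a short and a long form of the invariant chain, the long one carrying a thyroglobulin-type domain that inhibits cysteine proteases. Cd74-202, with an extra exon of 192 nt, was called lower (log2 fold change -0.86 ± 0.24, adjusted p = 0.0112). Cd74-201, without that exon, had a log2 fold change of -0.45 ± 0.16 and just missed the threshold (adjusted p = 0.0506), and without ctrl mouse 14 it was called (0.00833). The long form took 28.1, 16.5 and 25% of Cd74 reads in cold mice and 28.1, 26 and 35% in ctrl mice. These shares overlap, and Cd74-202 was not called without cold mouse 11 (adjusted p = 0.110), with DESeq2 (0.0829) or on flow cell 2 alone (log2 fold change -0.40, adjusted p = 0.508).

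Most H2-K1 reads, 77.7%, were counted on H2-K1-203, which the annotation classes as a retained intron transcript. It keeps the sixth and the seventh intron of the protein-coding H2-K1-205, at 33996655 to 33996826 (172 nt) and 33996477 to 33996615 (139 nt) of chromosome 17, and starts 6 nt downstream of it. H2-K1-203 took 78.8, 78 and 79.2% of the gene's reads in cold mice and 72, 79.3 and 78.4% in ctrl mice, so the share was alike in 5 mice and lower in ctrl mouse 2. How reads that fit several transcripts were assigned is not given in the sources used here. The protein-coding H2-K1-205 took 9.43% of the reads, and neither transcript was called (adjusted p = 0.0747 for H2-K1-203 and 0.304 for H2-K1-205).

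Retained intron transcripts of H2-T23 and Tap2 were called lower too. H2-T23-202, which keeps 4 introns of H2-T23-201, had 0.987, 5.64 and 3.00 CPM in cold mice and 12.5, 10.5 and 5.75 CPM in ctrl mice. The highest cold mouse lay just under the lowest ctrl mouse (log2 fold change -1.54 ± 0.43, adjusted p = 0.0139), and cold mouse 4 had 2 reads. H2-T23-201 was also called (log2 fold change -0.87 ± 0.28, adjusted p = 0.0324). Without any one of cold mice 4, 11 and 15 and ctrl mouse 9, the adjusted p of H2-T23-201 was 0.0889, 0.107, 0.0559 and 0.246, and without cold mouse 4, ctrl mouse 2 or ctrl mouse 9, that of H2-T23-202 was 0.113, 0.0839 and 0.0649. DESeq2 called neither (0.199 for H2-T23-201 and 0.0671 for H2-T23-202), and H2-T23-201 was not called without the filter on low counts (0.0624).

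Tap2-202, which keeps 1 intron of 162 nt and starts 1040 nt downstream of Tap2-201, had 2.47, 4.10 and 2.40 CPM in cold mice and 8.95, 5.80 and 8.63 CPM in ctrl mice. No cold mouse reached the ctrl mice (log2 fold change -1.35 ± 0.39, adjusted p = 0.0158), but the call was lost without cold mouse 4 (0.0798), cold mouse 15 (0.0635), ctrl mouse 2 (0.0705) or ctrl mouse 14 (0.0896), and with DESeq2 (0.135). The protein-coding Tap2-201 had a log2 fold change of -0.64 ± 0.24 and was not called (adjusted p = 0.072). Over all nuclear genes, retained intron transcripts took 3.67 to 3.81% of reads in cold mice and 3.77 to 3.97% in ctrl mice. Transcript usage was called for none of the 5 members that could be tested (Cd74, H2-K1, H2-T23, Tap2 and Tapbp), with 0 at an unadjusted p under 0.05 and 0 by limma's diffSplice, and for 0.195% of all 2568 genes tested.

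**Figure D3:**
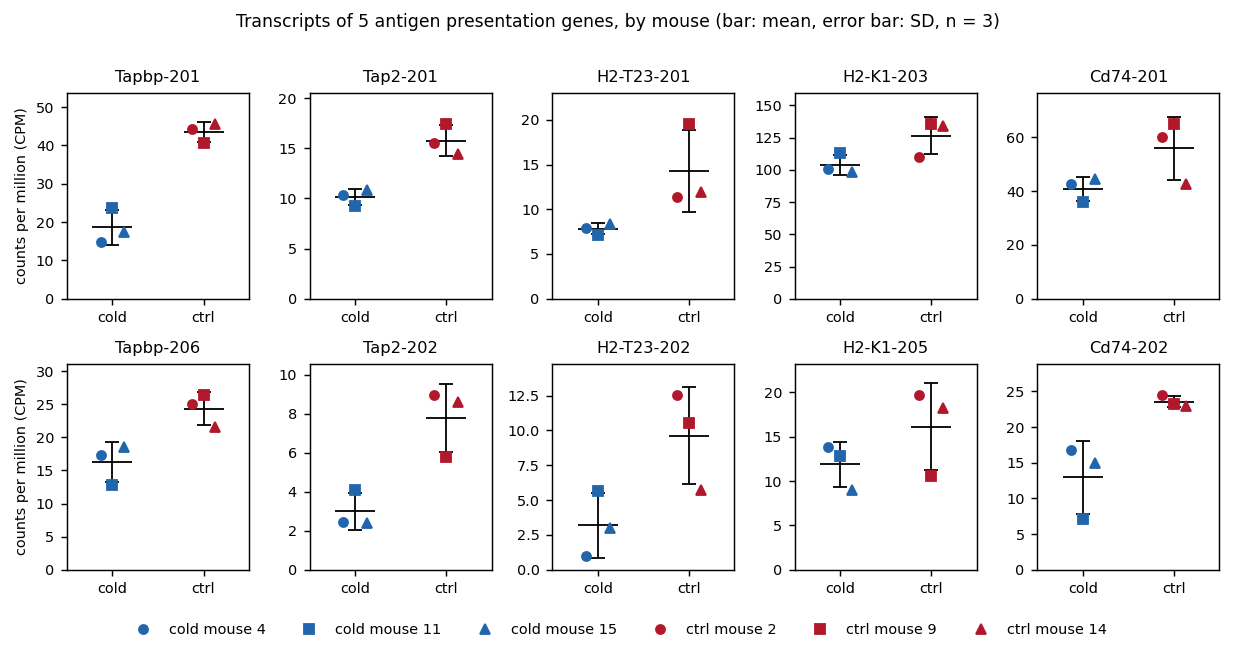
Level of 10 transcripts of 5 antigen presentation genes in each mouse, in CPM from 0 on the vertical axis, cold mice left and ctrl mice right; the bar is the mean and the error bar the SD (n = 3). The groups are far apart for Tapbp-201 and overlap for both H2-K1 transcripts and for Cd74-201.

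The rest of the pathway did not move as one. Of 13 tested genes of peptide supply and class I loading, 3 were called lower and 3 higher (9.77% and 9.75% of all tested genes), with a median log2 fold change of -0.02. The lower ones were Psmb9, a catalytic subunit of the immunoproteasome, and Psme2 and Psme1, the subunits of the PA28 proteasome activator. The other catalytic subunits of the immunoproteasome, Psmb8 (log2 fold change -0.62, adjusted p = 0.0763) and Psmb10 (-0.01, adjusted p = 0.979), were not called. Psme2 had 98.1, 99.7 and 92.0 CPM in cold mice and 178, 154 and 159 CPM in ctrl mice, a clear gap (log2 fold change -0.76 ± 0.10, adjusted p = 6.23e-06). Psmb9 had 6.28, 3.01 and 5.24 CPM in cold mice and 11.6, 15.8 and 8.38 CPM in ctrl mice, again without overlap (log2 fold change -1.28 ± 0.33, adjusted p = 0.00867). Psmb9 was not called without cold mouse 11 (adjusted p = 0.0623) or ctrl mouse 9 (0.0698), or with DESeq2 (0.0523). Reads in the 212 nt of exon that Psmb9 shares with Tap1 cannot be assigned to one of the pair. Psme2 is 99.4% identical to Psme2b over 794 nt, but Psme2b had 47 reads against 1511.

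The 3 higher genes, Calr, Canx and Pdia3, encode chaperones that fold class I heavy chains but also many other proteins of the endoplasmic reticulum. Calr, calreticulin, had 236, 207 and 254 CPM in cold mice and 135, 119 and 126 CPM in ctrl mice. All cold mice lay well above the ctrl mice, opposite in direction to Tapbp, whose product works with calreticulin (log2 fold change 0.88 ± 0.10, adjusted p = 8.87e-07). Canx, calnexin, rose likewise (log2 fold change 0.73 ± 0.09, adjusted p = 7.08e-06), and Pdia3, the disulfide isomerase ERp57, rose by 0.47 ± 0.11 on the log2 scale (adjusted p = 0.00306). Pdia3 was not called on flow cell 2 alone (0.161), nor Psme1 with protein-coding transcripts alone (0.0691). Psme1, Pdia3, Psmb8 and Psmb10 are outside the rule for named genes and were added after their values were seen.

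Of 8 other tested genes of class I and class I-like heavy chains, 1 was called lower and 1 higher (9.77% and 9.75% of all tested genes). The median log2 fold change of the 8 was -0.54. H2-T24, a nonclassical gene, fell (log2 fold change -1.68 ± 0.39, adjusted p = 0.00371) at 2.39 ± 0.63 CPM in cold mice and 7.78 ± 1.78 CPM in ctrl mice (SD, n = 3 each). H2-T22, whose product is a ligand of some gamma-delta T cell receptors, rose: it had 54.1, 45.1 and 48.9 CPM in cold mice and 33.0, 33.7 and 25.6 CPM in ctrl mice. The groups did not overlap (log2 fold change 0.69 ± 0.15, adjusted p = 0.0018; 0.0519 on flow cell 2 alone), and H2-T22 shares a stretch of 200 nt at 98% identity with H2-T23.

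H2-Q10, which encodes a secreted class I molecule made mainly by liver, had 143, 164 and 93.7 CPM in cold mice and 214, 289 and 242 CPM in ctrl mice. Its groups did not overlap, and its adjusted p of 0.0504 lay just above the threshold (log2 fold change -0.89 ± 0.23). It was called in 9 of 14 alternatives, among them DESeq2 (adjusted p = 8.01e-06), flow cell 1 alone (9.37e-05) and no filter on low counts (5.77e-06), with adjusted p-values over all 14 of 5.77e-06 to 0.173. The count of lower genes in this list was 1 to 3 when single mice were left out, with 3 without cold mouse 11, 2 with DESeq2 and 0 on flow cell 2 alone, where H2-T24 had too few reads for a test. H2-Q10 shares a stretch of 200 nt at 98.5% identity with H2-D1, so a read can be counted on the wrong one. H2-Q10 falls outside the rule for named genes and was added after its values were seen.

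Of 6 other tested genes of the class II pathway, 2 were called higher and none lower (9.75% and 9.77% of all tested genes). The median log2 fold change of the 6 was 0.35. Both called genes encode lysosomal proteases that can trim the invariant chain and antigens. Lgmn, legumain, had 49.8, 44.1 and 45.4 CPM in cold mice and 24.9, 27.6 and 33.5 CPM in ctrl mice, so that all cold mice were higher (log2 fold change 0.69 ± 0.15, adjusted p = 0.00199). Ctsl, cathepsin L, had 151, 115 and 171 CPM in cold mice and 93.7, 105 and 112 CPM in ctrl mice. Its cold mice were higher by a narrow margin (log2 fold change 0.49 ± 0.13, adjusted p = 0.0113), and without cold mouse 4, ctrl mouse 2 or ctrl mouse 9 the adjusted p was 0.0577, 0.0729 and 0.0625, and on flow cell 1 alone it was 0.0833. H2-Eb1, a second class II beta chain gene named here after its values were seen, averaged 37.9 ± 7.35 CPM in cold mice and 34.3 ± 1.14 CPM in ctrl mice (SD, n = 3 each). It was not called (log2 fold change 0.16, 95% interval -0.17 to 0.48, adjusted p = 0.545), and on flow cell 2 alone its sign turned (-0.15).

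**Figure D4:**
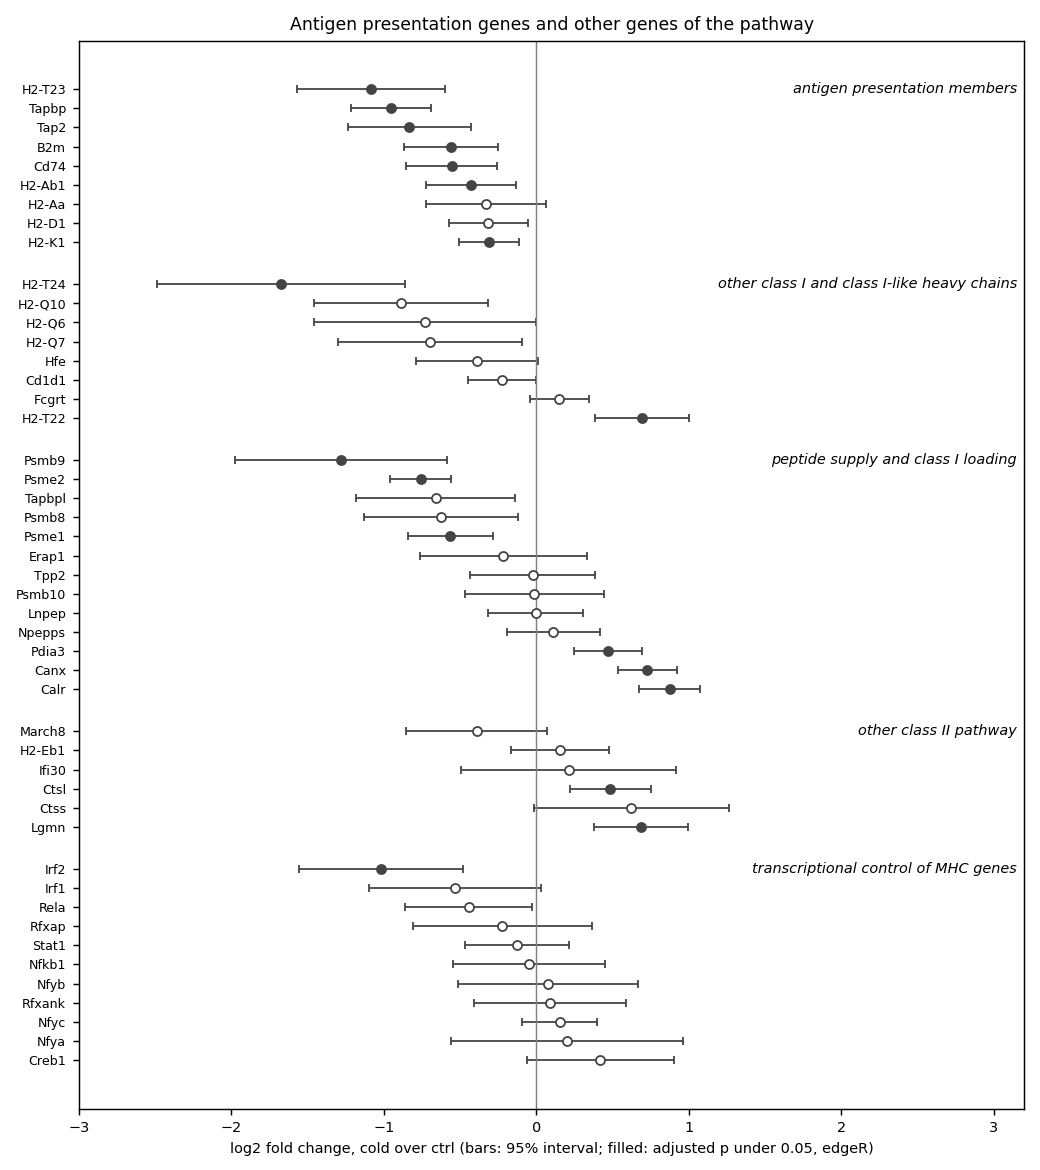
Log2 fold change (cold over ctrl) with its 95% interval for the 9 tested members, at the top, and for tested genes of 4 lists of the same pathway below them; filled points had an adjusted p under 0.05. The members all lie left of 0, while genes of peptide supply spread from Psmb9 at -1.28 to Calr at 0.88.

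Of 11 tested genes of the transcriptional control of MHC genes, 1 was called lower and none higher, where 9.77% of all tested genes were called lower and 9.75% higher, with a median log2 fold change of -0.05. The called one was Irf2, an interferon regulatory factor, at 5.80, 8.02 and 6.40 CPM in cold mice and 13.9, 13.8 and 13.5 CPM in ctrl mice. All cold mice were lower (log2 fold change -1.02 ± 0.26, adjusted p = 0.00722), but DESeq2 did not call it (0.0838), nor did flow cell 1 alone (0.240), and on flow cell 2 alone it had too few reads for a test. Nlrc5 and Ciita, the coactivators that switch on class I and class II genes, had only 23 and 5 reads in all 6 mice and were not tested, nor were Rfx5 (21 reads) and Irf8 (23 reads).

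Among 7 tested interferon receptors and signal transducers none was called by edgeR, 1 had an unadjusted p under 0.05, and DESeq2 called 0. The strongest was Ifnar2, a chain of the type I interferon receptor, with a log2 fold change of -0.30 ± 0.11 and an adjusted p of 0.0649. Ifnar1, its partner chain, had a log2 fold change of -0.17 ± 0.22 (adjusted p = 0.658). Without ctrl mouse 2, 1 gene of the list was called lower.

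Of 20 tested interferon-induced genes, 4 were called lower and 1 higher (9.77% and 9.75% of all tested genes), with a median log2 fold change of -0.48. DESeq2 called 2 of them lower, and on flow cell 1 alone and flow cell 2 alone 0 were called lower. Of the 4, Gbp3 alone had enough reads for a test on flow cell 1 (adjusted p = 0.125), and none had on flow cell 2. Cxcl9, a chemokine that draws T cells, had 3.38, 1.503 and 3.49 CPM in cold mice and 14.5, 15.8 and 7.44 CPM in ctrl mice. Its groups did not overlap (log2 fold change -2.13 ± 0.39, adjusted p = 0.00039), although cold levels were only a few reads in each mouse. Rsad2, the antiviral enzyme viperin, fell by 1.53 ± 0.41 on the log2 scale (adjusted p = 0.0113), Gbp3, a guanylate-binding protein, fell by 0.95 ± 0.32 (adjusted p = 0.0401), and the fourth was Psmb9. Without cold mouse 11 or without ctrl mouse 9, 1 gene of the list was called lower: Cxcl9 in either case, while Rsad2 had adjusted p-values of 0.0728 and 0.0687. Gbp3 was not called without cold mouse 4, 11 or 15 or ctrl mouse 9 or 14, at adjusted p-values of 0.0688, 0.108, 0.114, 0.114 and 0.152, nor with DESeq2 (0.249) or without the filter on low counts (0.0632).

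The gene called higher in that list was Ifi27, which lies outside the rule for named genes. It had 2333, 2241 and 1977 CPM in cold mice and 1535, 1348 and 1414 CPM in ctrl mice, opposite in direction to the rest of the called genes of the list (log2 fold change 0.61 ± 0.07, adjusted p = 2.64e-06).

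Markers of the cell types that could carry the members were summed in each mouse, and with 3 mice against 3 the exact two-sided permutation test cannot go below p = 0.1. The 6 leukocyte markers summed to 18.4, 11.5 and 12.8 CPM in cold mice and 28.4, 18.9 and 17.7 CPM in ctrl mice (exact permutation p = 0.2), from 83 reads in cold mice and 124 in ctrl mice. The highest cold mouse lay within the ctrl range and the other two below it. Macrophage markers summed to 104 to 138 CPM in cold mice and 72.6 to 103 CPM in ctrl mice (exact permutation p = 0.1). The lowest cold mouse lay just above the highest ctrl mouse. None of the 5 tested macrophage markers was called by edgeR, 1 had an unadjusted p under 0.05, and DESeq2 called 0. EdgeR called 1 higher without ctrl mouse 2, on flow cell 1 alone and on flow cell 2 alone. Dendritic cell markers summed to 7.73 to 14.0 CPM in cold mice and 7.44 to 15.8 CPM in ctrl mice (exact permutation p = 0.8), and B cell markers to 12.5 to 15.0 CPM in cold mice and 13.3 to 21.4 CPM in ctrl mice (exact permutation p = 0.4).

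Markers of T and natural killer cells had 11 reads in cold mice and 22 in ctrl mice, over 10 genes. Endothelial markers summed to 424 to 447 CPM in cold mice and 370 to 385 CPM in ctrl mice (exact permutation p = 0.1), and markers of fibroblasts and preadipocytes to 212 to 273 CPM in cold mice and 257 to 304 CPM in ctrl mice (exact permutation p = 0.3). The sum of brown adipocyte markers was higher in all cold mice, at 18998 to 19573 CPM against 14831 to 16648 CPM in ctrl mice (exact permutation p = 0.1). Most of that sum was Ucp1, and the 6 markers did not move together. Of the 6, 3 had log2 fold changes below 0. Ucp1 was called higher and Adipoq lower, where 9.75% and 9.77% of all tested genes were. Adipoq averaged 398 ± 30.2 CPM in cold mice and 581 ± 48.7 CPM in ctrl mice (log2 fold change -0.54 ± 0.08, edgeR adjusted p = 4.58e-05). None of the marker genes was at 0 reads over the 6 libraries. The part of cell numbers in the members' changes was not tested.

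**Figure D5:**
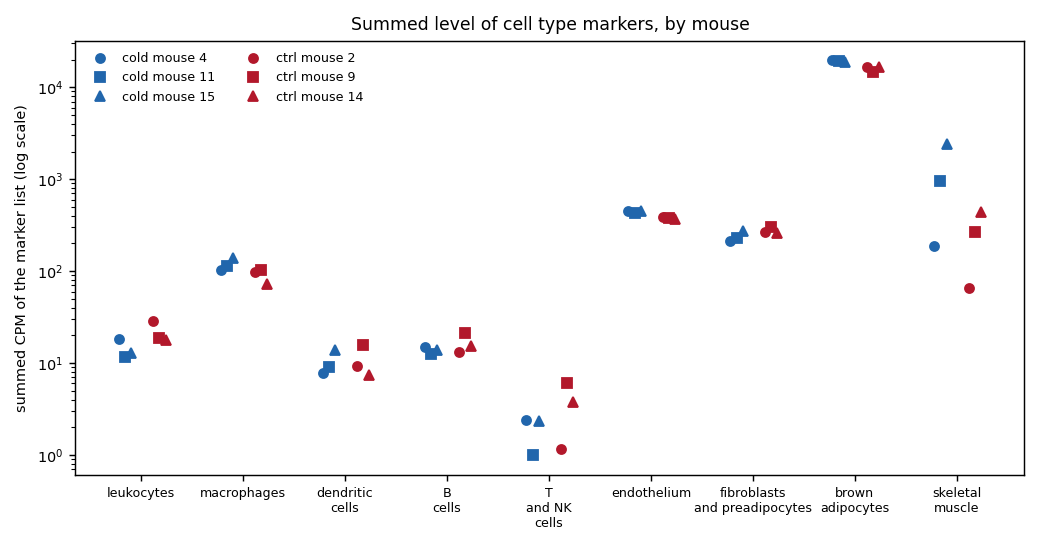
Summed CPM of each list of cell type markers in each mouse, on a log axis, with cold mice left of ctrl mice. Leukocyte, B cell and fibroblast sums tend lower in cold mice with overlap, macrophage, endothelial and brown adipocyte sums are higher in every cold mouse, and muscle varies most.

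The genes outside all lists whose levels over the 6 mice were most like the members' were also listed, among genes of at least 30 CPM. Likeness was the root mean square difference of log2 CPM, centred on each gene's mean. For the mean of the 6 tested class I members (3 heavy chains, B2m, Tap2 and Tapbp) the 5 nearest were Sec14l1 (0.055), Spg7 (0.064), Cavin1 (0.072), Chpt1 (0.074) and Rbbp4 (0.075). Cavin1, a coat protein of caveolae, averaged 176 ± 16.0 CPM in cold mice and 273 ± 31.9 CPM in ctrl mice, and Spg7, a mitochondrial protease, averaged 38.1 ± 0.91 CPM in cold mice and 62.7 ± 7.55 CPM in ctrl mice (SD, n = 3 each). For the mean of the 3 class II members they were Rab33b (0.050), Exosc2 (0.093), Rreb1 (0.1002), Calm3 (0.107) and Fmc1 (0.111).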

How the data were processed

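Per the labels' protocols, poly(A) RNA was captured in 2 rounds and 100 ng of it made into each library. The authors deposited whole-number read counts per transcript for each flow cell, unnormalized. The submitters' processing notes name minimap2 and build GRCm38, and the authors' annotation and counting rules were not given in the sources used here. Transcripts were matched to GENCODE M21; 172 unmatched ones held 0.0836% of reads and were left out. Counts were summed over flow cells and over transcripts of a gene. Genes, transcripts and the 2 sums were tested with edgeR 4.0.16 (quasi-likelihood, TMM, filterByExpr, all 6 libraries, no covariate, Benjamini-Hochberg over all features) in R 4.3.3, after the code was tested on simulated data; usage with diffSpliceDGE. Alternatives used DESeq2 1.42.0, limma 3.58.1, RLE factors, other filters, single flow cells and 5 mice. The edgeR legacy dispersion was added after seeing the data. Figures used matplotlib 3.10.9, and copies were sought with minimap2 2.31.

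The members and lists were chosen with earlier results of these data known. The rule named every member with its transcripts of at least 20 reads, up to 4 called genes of each list by size of change (the 2 largest changes where none was called), and the 5 genes nearest to each of 2 member means. Not every gene or transcript that the rule named is described above. Depth was 1657985 to 2238056 reads; intervals cover the spread between mice, and read numbers limit low genes.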

Additional observations from a re-analysis of the deposited data

How the results depend on the processing

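All tested members kept a log2 fold change below 0 in the 14 alternatives, and the summed class I reads stayed called in all 14 of theirs, down to -0.28 without H2-Q10, an alternative chosen after seeing the data. DESeq2 called 931 genes (492 higher, 439 lower), 4 members and 996 transcripts, and gave the summed class II reads -0.34 with an adjusted p of 0.110. Flow cell 2 alone, with fewer reads, called 837 genes (429 higher, 408 lower), 1 member and 912 transcripts, and gave class II -0.36 (adjusted p = 0.053). Leaving out single mice gave 4 to 7 called members and class II values of -0.46 to -0.27; the cause was not tested. H2-K1-211, with 54 reads, turned positive with RLE factors (0.00026), without mitochondrial genes (0.0037), without a filter (0.019) and, without single mice, ranged from -0.43 to 0.34. H2-Eb1 turned to -0.15 on flow cell 2 alone. The legacy dispersion of edgeR, chosen after seeing the data, moved no member gene across the threshold, but called the transcript Cd74-201 (adjusted p = 0.0386). No paired analysis was possible because the mouse numbers of the groups differ. Depth limits Tap1 (44 reads), Nlrc5 and Ciita.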

Other observations

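Some markers of the tissue's supporting cells were also called, in both directions. Of 10 tested endothelial markers, 2 were called higher and 1 lower, where 9.75% and 9.77% of all tested genes were. Kdr, a receptor for vascular endothelial growth factor, had 89.4, 89.7 and 82.7 CPM in cold mice and 52.7, 55.1 and 61.4 CPM in ctrl mice, with no overlap (log2 fold change 0.63 ± 0.11, adjusted p = 0.000313). On flow cell 2 alone its log2 fold change was 0.36 (adjusted p = 0.172), and no endothelial marker was called higher there. Of 5 tested markers of fibroblasts and preadipocytes, 3 were called lower (9.77% of all tested genes), all collagen genes. Col3a1, of type III collagen, had 50.7, 56.1 and 45.4 CPM in cold mice and 80.4, 96.5 and 74.4 CPM in ctrl mice, again with no overlap (log2 fold change -0.72 ± 0.13, adjusted p = 0.000282). Dcn, the proteoglycan decorin and a marker in the same list, had a fold change of opposite sign, at 110, 113 and 162 CPM in cold mice and 101, 97.5 and 103 CPM in ctrl mice. Every cold mouse was above every ctrl mouse, and it was not called (log2 fold change 0.34 ± 0.13, adjusted p = 0.0746). In 3 alternatives, without cold mouse 4, without cold mouse 11 and without the filter on low counts, 1 marker of that list was called higher. Without cold mouse 4, without ctrl mouse 9 or on flow cell 2 alone, 1 gene of the fibroblast list was called lower, and without ctrl mouse 9 or 14, 1 endothelial marker was called higher. The lower endothelial call, Tek, was lost without each single mouse in turn.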
